A study of Mus musculus with 8 samples.

Results

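Heat shock proteins, J-domain proteins and the cytosolic chaperonin were examined in germinal centre B cells of the light zone and the dark zone. The members were every gene whose single symbol in the array annotation starts with Hsp, with Dnaj or with Cct and a digit, leaving out 5 chaperones of the endoplasmic reticulum (Hspa5, Hsp90b1, Dnajb9, Dnajb11 and Dnajc3). This gave 77 of the 18193 genes named on the array. The mice were of the C57BL/6 strain and had received subcutaneous NP-KLH (a hapten on a carrier protein) in alum, and their lymph nodes were taken on day 12. All samples were sorted as germinal centre B cells that carry B220 and CD95 and lack CD38. There were 4 arrays of light zone cells and 4 arrays of dark zone cells, each hybridised with total RNA and called a biological replicate by the labels. The labels do not say whether a replicate was 1 mouse or a pool, so p-values measure the spread between these samples. The labels word the gates as high CXCR4 and low CD83 for the light zone and the reverse for the dark zone, whereas the mRNA of both genes ran the other way: Cd83 averaged 7381 ± 195 in light zone arrays and 1478 ± 111 in dark zone arrays, while Cxcr4 averaged 804 ± 39.3 in light zone arrays and 1571 ± 125 in dark zone arrays (intensity, mean ± SD, n = 4 each). Groups follow the sample titles throughout.

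Molecular chaperones bind proteins that are not yet folded or have lost their fold. HSP70 proteins hold exposed stretches of a client in a cycle driven by ATP, J-domain proteins bring clients to HSP70 and stimulate its ATPase, and HSP110 proteins release the spent nucleotide. HSP90 acts later, on kinases, receptors and transcription factors, and in B cell lymphoma it is known to stabilise BCL6, a repressor that germinal centres require. The cytosolic chaperonin CCT is a ring of related subunits that folds actin and tubulin, and the mitochondrial chaperonin is built from Hspd1 (HSP60) and its lid Hspe1 (HSP10). Several of these genes are induced by the heat shock factor HSF1 when proteins are damaged.

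Not every member is cytosolic, or a chaperone. By textbook location, 7 members were grouped under mitochondria (Hspa9, Hspd1, Hspe1, Dnaja3, Dnajc11, Dnajc15 and Dnajc30) and 6 under the endoplasmic reticulum (Hspa13, Dnajb12, Dnajb14, Dnajc1, Dnajc10 and Dnajc25). These lists may be incomplete, since J proteins kept in class C may also lie there. Hspg2 encodes perlecan, a proteoglycan of the extracellular matrix and no chaperone. Hsp90ab1 and Dnajc19 have no probe set of their own single symbol and were not analysed here, and Tcp1, the first CCT subunit, lies outside the symbol pattern and is given beside the other subunits.

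Array medians lay between 27.3 and 28.1 intensity units, and arrays correlated at 0.995 to 0.997 within a zone and 0.974 to 0.980 between zones over the tested genes. The summed intensity of 5 B cell markers was 19057 to 19765 in light zone arrays and 18883 to 19841 in dark zone arrays. The sum of 7 T cell markers was 172 to 183 in light zone arrays and 166 to 179.8 in dark zone arrays. It was 121 to 128 in light zone and 121 to 136 in dark zone arrays for 5 stromal markers, and 23.2 to 25.1 in light zone and 25.3 to 30.5 in dark zone arrays for 2 erythroid markers. For 8 myeloid markers the sum was 178 to 238 in light zone arrays and 290.04 to 1009 in dark zone arrays, led by Lyz2, which read 43.0, 40.7, 37.7 and 89.1 in light zone arrays and 128, 461, 466 and 824 in dark zone arrays. For 5 plasma cell markers the sum was 10751 to 12069 in light zone arrays and 11722 to 12263 in dark zone arrays, a sum that Jchain dominates. Single plasma cell markers moved both ways. Irf4 (2.03, SE 0.09, limma adjusted p = 7.4e-09) and Prdm1 (1.37, SE 0.12, limma adjusted p = 2.4e-06) were higher in the light zone. Prdm1 was bright enough to test only through its light zone arrays. Its dark zone arrays read 16.9, 20.5, 14.6 and 18.3, all below the 27.8 needed on average. Jchain was lower (-0.15, limma adjusted p = 0.049), and Sdc1 and Xbp1 did not pass (0.14 and 0.15). Of the myeloid markers, 3 were bright enough to test, and 2 of them, Lyz2 and Csf1r, were lower in the light zone. The part of the myeloid markers in the results was not tested. In sorted bulk samples, fewer cells of a type and less RNA per cell cannot be told apart.

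The chaperones moved in both directions and, as a whole, about as often as other genes. Of the 77 members, 57 were bright enough to test, with a mean at or above the 50th percentile of all probe sets (an intensity of 27.8), and 20 were too dim. Among the 57, 14 (24.6%) were higher in the light zone and 15 (26.3%) were lower at a limma adjusted p under 0.05, against 24.8% and 19.1% of all 10547 tested genes. Either call was made for 50.9% of the tested members and 43.9% of all tested genes. Each difference is the light zone mean minus the dark zone mean on the log2 scale, so a positive value means higher in the light zone. The median difference was -0.02 over the tested members and 0.01 over all tested genes. Differences ran from -0.87 for Hspa2 to 1.14 for Hspe1. At least 1.5-fold was reached by 3 members higher in the light zone (Hspe1, Hspb11 and Dnajc1) and 2 lower (Hspa2 and Dnajc12), against 6.19% and 3.86% of all tested genes. In 27 members (47.4%) the 4 arrays of one zone did not overlap with those of the other, against 41.3% of all tested genes. Leaving out each of the 8 arrays in turn kept 20 of the 29 calls, and the other 9 are named with their values in the sections on their groups.

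**Figure D1:**
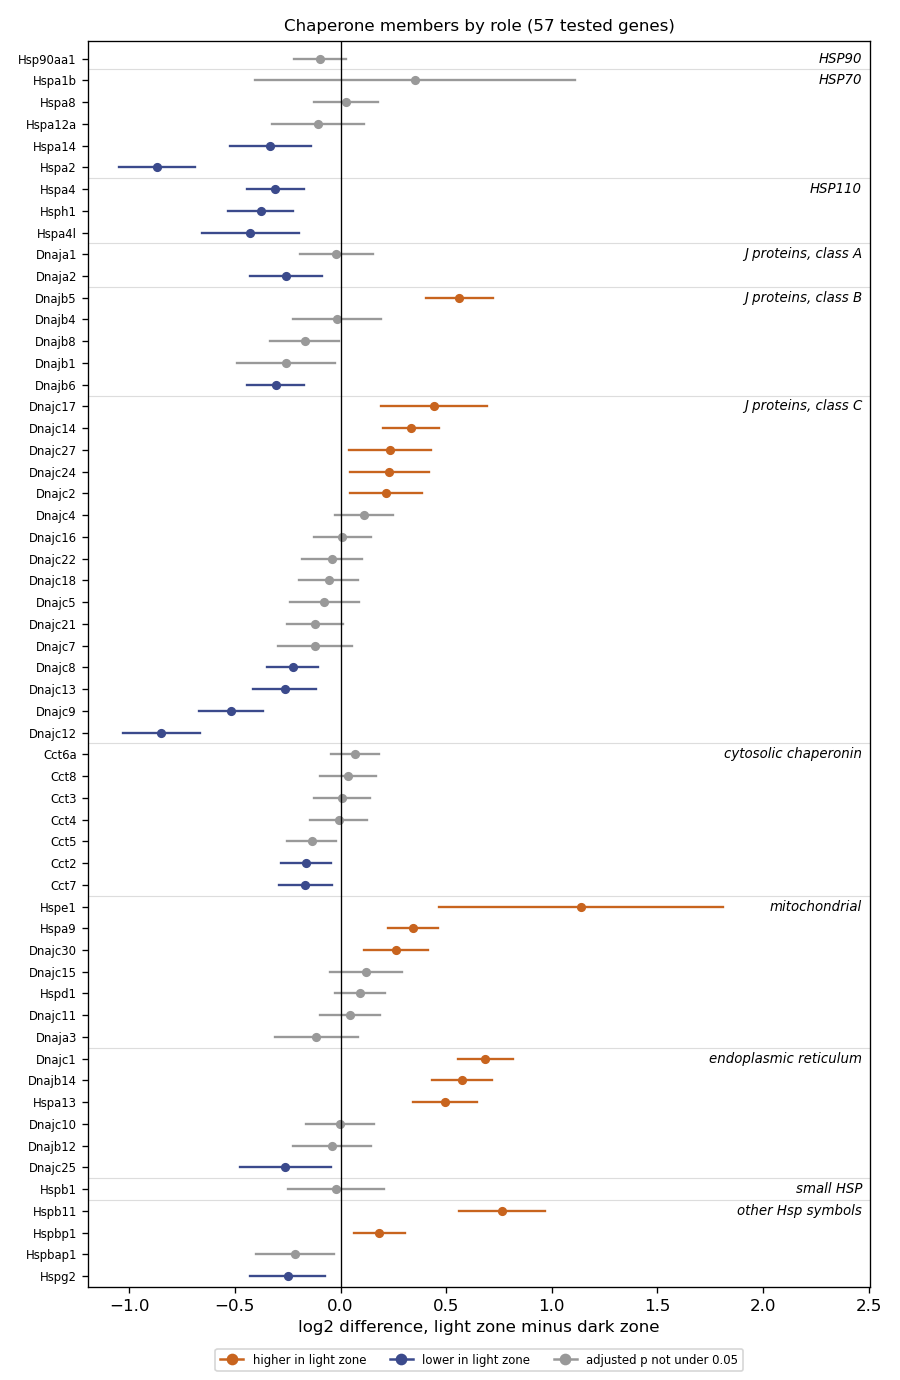
Log2 difference, light zone minus dark zone, of the 57 tested members, grouped by role. Points are limma estimates and bars their 95% confidence intervals, with genes higher in the light zone in orange, genes lower in blue and genes that did not pass in grey. All 3 HSP110 genes lie left of 0, the 7 CCT subunits lie within 0.17 of 0, and Hspe1 has the highest value with a wide interval.

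All 3 HSP110 genes and 2 of the 5 tested HSP70 genes were lower in the light zone, beside 19.1% of all tested genes. The HSP110 genes act as nucleotide exchange factors for HSP70, and all 3 passed the test. Hspa4 had intensities of 3417, 3332, 3346 and 3037 in light zone arrays and 4021, 4135, 3866 and 4251 in dark zone arrays, which gave a log2 difference of -0.31 with an SE of 0.06 and a limma adjusted p of 0.0016. Every light zone array lay below every dark zone array. Hsph1, a heat-inducible member also known as HSP105, had 1126, 986, 1052 and 1144 in light zone arrays and 1471, 1390.1, 1274 and 1466 in dark zone arrays, which gave a difference of -0.38 with an SE of 0.07 and a limma adjusted p of 0.0011. These arrays did not overlap either. Hspa4l, the third of the family, was dim at 66.5, 49.0, 49.2 and 52.1 in light zone arrays and 64.0, 79.7, 77.7 and 68.9 in dark zone arrays, which gave a difference of -0.43 with an SE of 0.10 and a limma adjusted p of 0.0059. One light zone array, replicate 1, lay above the lowest dark zone array.

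The other probe sets of these genes ran the same way. Hspa4 has 4 probe sets above the filter, and all 4 were lower in the light zone at a limma adjusted p under 0.05 in a fit over all probe sets, with differences from -1.31 to -0.31. The brightest, which stands for the gene, gave the smallest of them. Both probe sets of Hsph1 were lower (-0.70 and -0.38), as were all 5 of Hspa4l (-0.55 to -0.13), of which 3 passed.

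Hspa2 had the lowest difference of the tested members. It encodes an HSP70 protein best known from spermatogenesis, and read 197, 214, 209.9 and 229 in light zone arrays and 418, 331, 391 and 418 in dark zone arrays, which gave a difference of -0.87 with an SE of 0.08 and a limma adjusted p of 5.0e-06. The dark zone values were well apart from the light zone values on every array. Hspa14, which with Dnajc2 forms a chaperone pair at the ribosome, had 649, 540.3, 651 and 544 in light zone arrays and 839, 673, 730.1 and 759 in dark zone arrays, which gave a difference of -0.33 with an SE of 0.09 and a limma adjusted p of 0.0091. These arrays did not overlap. Of its 2 dimmer probe sets, 1 passed as lower (-0.45) and 1 gave 0.18 and did not pass.

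The constitutive HSP70, Hspa8, showed no difference that passed on its brightest probe set. It read 9711, 10864, 10833 and 11367 in light zone arrays and 10559, 10282, 9847 and 11385 in dark zone arrays, a difference of 0.02 (95% interval -0.13 to 0.17, limma adjusted p = 0.81). The zones overlapped. Its 4 probe sets above the filter ran from 0.02 to 0.85, so the value depends on the probe set: with probe sets averaged the difference was 0.32 (limma adjusted p = 0.0065), and with probe sets of the plain type alone it was 0.85 (limma adjusted p = 0.024). The suffix of the probe set used marks a design whose probes may cross-hybridise, and the probe sets used for Cct2, Cct4 and Hspbap1 carry it too. Hspa12a, a distant relative of HSP70, was dim and did not pass (-0.11, limma adjusted p = 0.41). Hspa1a, Hspa1l and Hspa12b were too dim to test.

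Hsp90aa1, the inducible cytosolic HSP90, did not pass on its brightest probe set. It read 5142, 5372, 4952 and 5007 in light zone arrays and 5542, 5581, 5267 and 5536 in dark zone arrays, a difference of -0.10 (95% interval -0.22 to 0.02, limma adjusted p = 0.18). The highest light zone array overlapped with the lowest dark zone array. All 3 of its probe sets above the filter were negative (-0.23 to -0.05), and the average over all 5 of its probe sets, -0.12, passed (limma adjusted p = 0.044).

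**Figure D2:**
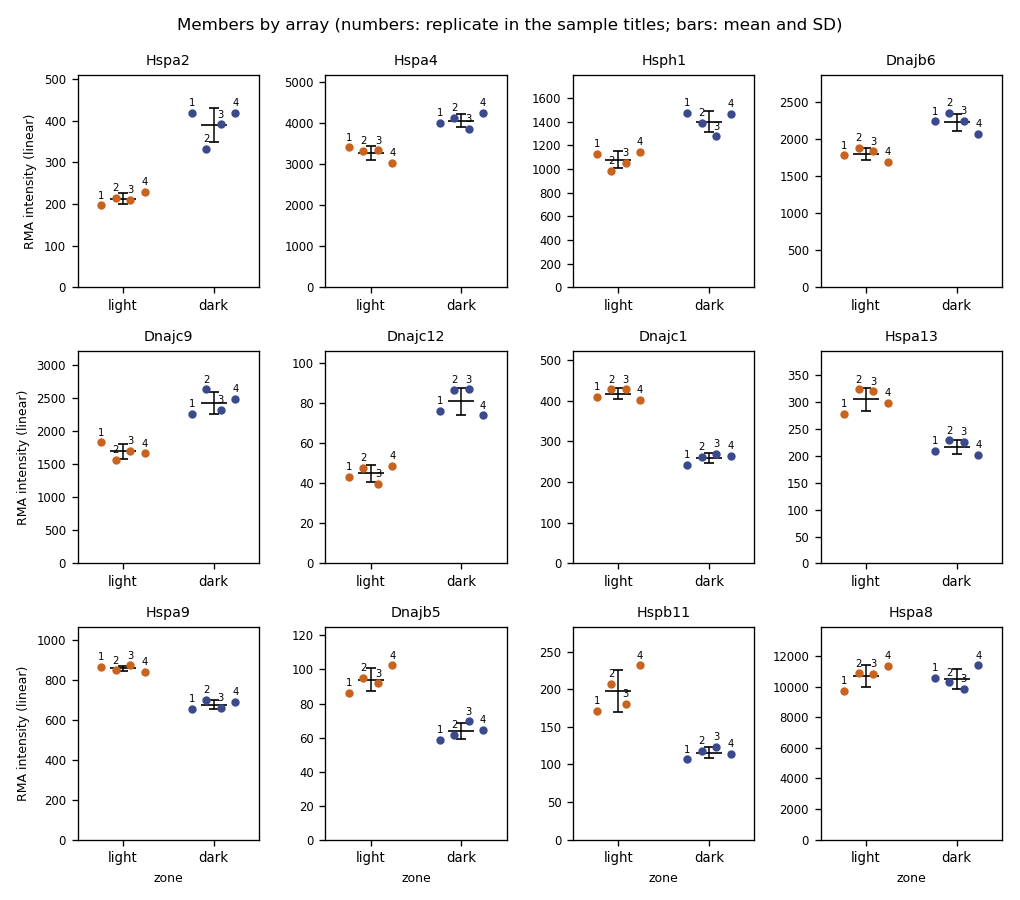
RMA intensity on a linear scale of 12 members in each array, with light zone arrays at the left of each panel and dark zone arrays at the right. Numbers are the replicate numbers of the sample titles, and bars are the mean and SD of 4 arrays. In every panel except Hspa8 the zones do not overlap, with Hspa2, Hspa4, Hsph1, Dnajb6, Dnajc9 and Dnajc12 lower in the light zone.

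Heat-inducible HSP70 was spread widely within each zone and did not pass. Hspa1b read 124, 38.3, 55.4 and 84.4 in light zone arrays and 75.9, 30.9, 47.5 and 75.4 in dark zone arrays, a difference of 0.35 with a 95% interval of -0.41 to 1.11 (limma adjusted p = 0.44). Replicate 2 was the lowest array in both zones, and replicate 1 the highest in both. The SD of Hspa1b within zones was above that of 99.9% of tested genes. Hspa1a, a near-identical copy whose probes may not tell the pair apart, was below the filter at 22.7, 13.2, 12.3 and 17.2 in light zone arrays and 15.4, 13.7, 13.9 and 17.3 in dark zone arrays. Replicate 1 was again the highest light zone array, while replicate 4 was the highest dark zone array.

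Of the 7 tested class A and B J-domain proteins, general partners of HSP70, 1 was higher in the light zone, 2 were lower and 4 did not pass. Over all tested genes, 24.8% were higher and 19.1% were lower. Dnaja2 was lower at 2799.6, 2294, 2538 and 2255 in light zone arrays and 3181, 2815, 2916 and 2886 in dark zone arrays, which gave a difference of -0.26 with an SE of 0.08 and a limma adjusted p of 0.018. The zones were barely apart, since the lowest dark zone array stood just above the highest light zone array. The call was lost without light zone replicate 2 or 4 (limma adjusted p = 0.052 to 0.055, differences over the 8 omissions from -0.32 to -0.22), and of its 3 dimmer probe sets 2 passed as lower (-0.58 and -0.35) while 1 passed as higher (0.29). Dnaja1 did not pass, with a difference of -0.02 (95% interval -0.19 to 0.15, limma adjusted p = 0.86).

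Dnajb6, known for keeping polyglutamine proteins from aggregating, was lower in the light zone. It read 1778, 1879, 1831 and 1690.1 in light zone arrays and 2234, 2345, 2237 and 2068 in dark zone arrays, which gave a difference of -0.31 with an SE of 0.06 and a limma adjusted p of 0.0018. The zones did not overlap, and all 4 probe sets above the filter were negative (-0.88 to -0.27), 3 of them past the threshold. Dnajb5 was the 1 class B gene higher in the light zone, at 86.4, 95.3, 91.8 and 102 in light zone arrays and 58.6, 61.7, 69.6 and 64.6 in dark zone arrays, which gave a difference of 0.56 with an SE of 0.07 and a limma adjusted p of 6.7e-05. Its zones did not overlap either. Another probe set of Dnajb5, the one of the plain type, gave 0.20 and did not pass.

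Dnajb1, the main heat-inducible J protein of the cytosol, did not pass. It read 1266, 1054, 1329 and 1422 in light zone arrays and 1461, 1285, 1592 and 1734 in dark zone arrays, a difference of -0.26 (95% interval -0.49 to -0.03, limma adjusted p = 0.067). The zones overlapped, and in both the array of replicate 2 was the lowest and that of replicate 4 the highest. The difference passed without light zone replicate 4 (-0.32, limma adjusted p = 0.042) or dark zone replicate 2 (-0.34, limma adjusted p = 0.024), and with trend and robust variance estimation (limma adjusted p = 0.041). Dnajb4 (-0.02, limma adjusted p = 0.90) and the dim Dnajb8 (-0.17, limma adjusted p = 0.084) did not pass. Without dark zone replicate 3, Dnajb8 passed at -0.23 (limma adjusted p = 0.020).

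Class C J proteins, which share little beyond the J domain and serve separate processes, went both ways: of 16 tested, 5 were higher in the light zone, 4 were lower and 7 did not pass. The shares over all tested genes were 24.8% higher and 19.1% lower. The lower ones were led by Dnajc12, a J protein that assists aromatic amino acid hydroxylases, at 43.4, 47.9, 40.0 and 49.0 in light zone arrays and 76.5, 86.7, 87.1 and 74.1 in dark zone arrays, which gave a difference of -0.85 with an SE of 0.08 and a limma adjusted p of 6.2e-06. The dark zone arrays stood clearly above all light zone arrays. Dnajc9, a chaperone of histones H3 and H4, read 1825, 1567, 1703 and 1662 in light zone arrays and 2258, 2627, 2317 and 2481 in dark zone arrays, which gave a difference of -0.52 with an SE of 0.07 and a limma adjusted p of 9.1e-05. Here too the zones did not overlap. Dnajc13, a regulator of endosomal sorting, was lower by a difference of -0.27 (SE 0.07, limma adjusted p = 0.0080), and Dnajc8, a protein linked to the spliceosome, by -0.23 (SE 0.05, limma adjusted p = 0.0055). Dimmer probe sets of both above the filter did not pass (-0.11 for Dnajc13 and -0.07 for Dnajc8).

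On their brightest probe sets, the 7 class C genes that did not pass lay between -0.12 and 0.11. Among them was Dnajc7, also known as TPR2, which binds both HSP70 and HSP90, at 1705, 1381, 1675 and 1819.6 in light zone arrays and 1726, 1807, 1780.2 and 1811 in dark zone arrays, a difference of -0.12 (95% interval -0.30 to 0.05, limma adjusted p = 0.25). Its zones overlapped.

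Of the 5 class C genes higher in the light zone, 2 kept their call without each array. Dnajc17, linked to splicing, read 2229, 2549, 2107 and 2461 in light zone arrays and 1338, 1687, 1959.7 and 1957 in dark zone arrays, which gave a difference of 0.44 with an SE of 0.12 and a limma adjusted p of 0.0084. The zones did not overlap, though the dark zone arrays were spread widely. A dimmer probe set of Dnajc17 above the filter gave 0.24 and did not pass. Dnajc14, a membrane J protein, read 435, 436, 438 and 438 in light zone arrays and 344, 319, 367 and 359 in dark zone arrays, which gave a difference of 0.33 with an SE of 0.06 and a limma adjusted p of 8.2e-04. Of its 2 dimmer probe sets, 1 passed at 0.47 and 1 gave -0.12.

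The other three lost their call when single arrays were left out. Dnajc2, the ribosome partner of Hspa14, read 1701, 1625, 1727 and 1632 in light zone arrays and 1241, 1418, 1551 and 1572 in dark zone arrays, which gave a difference of 0.22 with an SE of 0.08 and a limma adjusted p of 0.041. Its call held only without dark zone replicate 3 or 4, and without any other array the limma adjusted p was 0.058 to 0.095 (differences over the 8 omissions from 0.14 to 0.26). Its 2 dimmer probe sets above the filter did not pass (-0.04 and 0.02), and the average over its probe sets was 0.06 (limma adjusted p = 0.41). Hspa14 and Dnajc2, which work as a pair, thus gave differences of opposite sign on their brightest probe sets. Dnajc27 had a difference of 0.24 (limma adjusted p = 0.049), kept its call only without array 2 of the light zone or array 4 of the dark zone, and otherwise had a limma adjusted p of 0.070 to 0.14 (0.17 to 0.31 over the 8 omissions). With its probe sets averaged the Dnajc27 difference was 0.15 (limma adjusted p = 0.11). Dnajc24, needed for the diphthamide modification of elongation factor 2, had a difference of 0.23 (limma adjusted p = 0.044), kept its call only without dark zone replicate 2 or 3, and otherwise had 0.062 to 0.086 (0.14 to 0.28 over the 8 omissions).

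On their brightest probe sets, subunits of the cytosolic chaperonin lay close to 0, and in 3 subunits a dimmer probe set passed as lower. Of its 7 tested subunits, 2 were lower in the light zone, none was higher and 5 did not pass, with differences from -0.17 to 0.07. The shares over all tested genes were 19.1% lower and 24.8% higher. Cct7 read 2573, 2377, 2559 and 2558 in light zone arrays and 2691, 2918, 2802 and 2886 in dark zone arrays, which gave a difference of -0.17 with an SE of 0.06 and a limma adjusted p of 0.035. The zones did not overlap, but the call held only without array 1 of the light zone or array 1 of the dark zone, with a limma adjusted p of 0.054 to 0.094 otherwise (-0.19 to -0.14 over the 8 omissions). Cct2 read 4893, 4706, 4958 and 4794 in light zone arrays and 5559.6, 5483, 5349 and 5296 in dark zone arrays, which gave a difference of -0.16 with an SE of 0.05 and a limma adjusted p of 0.027. Its call was lost without array 2 or 4 of the light zone or array 1 or 2 of the dark zone (limma adjusted p = 0.054 to 0.065, differences from -0.18 to -0.15). A dimmer probe set of Cct7 was lower by more (-0.33, limma adjusted p = 0.0017 over all probe sets), with no overlap between zones. Of the 2 dimmer probe sets of Cct2, 1 was lower by more (-0.34, limma adjusted p = 0.016 over all probe sets, no overlap) and 1 gave 0.09 and did not pass. Both gene calls were also lost with arrays centred on their medians (limma adjusted p = 0.051 for Cct2 and 0.064 for Cct7) and that of Cct7 without a filter (limma adjusted p = 0.057), and with averaged probe sets 4 subunits passed as lower (Cct2, Cct3, Cct5 and Cct7).

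Among the other subunits Cct5 came closest to the threshold, at 3513, 3357, 3417 and 3369.6 in light zone arrays and 3799, 3766, 3754 and 3696 in dark zone arrays, a difference of -0.14 (95% interval -0.25 to -0.02, limma adjusted p = 0.053), with no overlap between zones, and passed under 5 of the other settings (limma adjusted p = 0.0096 to 0.0495). Cct3 gave 0.01 (95% interval -0.13 to 0.14, limma adjusted p = 0.93), and 1 of its 5 dimmer probe sets passed as lower (-0.86). The brightest of these 5 gave -0.14 (limma adjusted p = 0.13 over all probe sets) with no overlap between zones, and the highest difference was 0.12. Cct4 gave -0.01 (95% interval -0.14 to 0.13), Cct8 0.04 (95% interval -0.10 to 0.17) and Cct6a 0.07 (95% interval -0.05 to 0.18), none of which passed. The 5 probe sets of Cct4 above the filter ran from -0.12 to 0.09, and none passed. Cct6b, the testis form of the sixth subunit, and Cct8l1 were too dim to test.

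Tcp1, the CCT subunit outside the symbol pattern, differed more than the 7 tested here on the brightest probe set of each. It read 3722, 3181, 3290.5 and 3301 in light zone arrays and 3971, 5033, 4605 and 4369.8 in dark zone arrays, which gave a difference of -0.41 with an SE of 0.08 and a limma adjusted p of 0.0014. The zones did not overlap. No test of Tcp1 against the other subunits was made. A dimmer probe set of Cct3 was lower by more (-0.86), and any other probe sets of Tcp1 are not given here. Prefoldin, the complex that hands nascent actin and tubulin to CCT, was split: Vbp1 (-0.56, SE 0.08, limma adjusted p = 9.5e-05) and Pfdn6 (-0.35, SE 0.07, limma adjusted p = 0.0018) were lower in the light zone, and Pfdn5 (0.23, SE 0.06, limma adjusted p = 0.0067) was higher.

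Vbp1 had intensities of 1837, 2187, 1855 and 1765 in light zone arrays and 2819.6, 2927, 2936 and 2594 in dark zone arrays, with no overlap. Pfdn1, Pfdn2 and Pfdn4 did not pass (0.15, -0.13 and 0.16), although Pfdn4 passed without array 2 of the dark zone (limma adjusted p = 0.033). The phosducin-like cofactors Pdcl (0.20, limma adjusted p = 0.049) and Pdcl3 (0.17, limma adjusted p = 0.046) were higher, and the calls of both were lost in 6 of the 8 omissions of an array. That of Pdcl held only without array 4 of the light zone or array 1 of the dark zone (limma adjusted p = 0.054 to 0.13 otherwise, differences 0.13 to 0.23), and that of Pdcl3 only without array 3 of the light zone or array 3 of the dark zone (0.052 to 0.13 otherwise, differences 0.13 to 0.20). With probe sets averaged the Pdcl difference was -0.01 (limma adjusted p = 0.89).

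On their brightest probe sets, mitochondrial chaperones that passed were all higher in the light zone. Of 7 tested, 3 were higher, none was lower and 4 did not pass, beside 24.8% higher and 19.1% lower among all tested genes. Hspe1, the lid of the mitochondrial chaperonin, read 959, 3457, 1991 and 2355 in light zone arrays and 735, 916, 776 and 1263 in dark zone arrays on its brightest probe set, which gave a difference of 1.14 with an SE of 0.31 and a limma adjusted p of 0.010. Light zone replicate 1 overlapped with the dark zone, and the SD within zones was above that of 99.9% of tested genes. The call was lost with a variance model that uses a trend and robust estimation (limma adjusted p = 0.068). Its second probe set was tight, at 1460.2, 1548, 1402 and 1556 in light zone arrays and 789, 891, 823 and 764 in dark zone arrays, with no overlap and a difference of 0.87 (SE 0.07, limma adjusted p over all probe sets = 1.1e-06).

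Hspd1, the ring subunit that works with Hspe1, had a smaller difference that did not pass. It read 2453, 2432, 2559 and 2558 in light zone arrays and 2362, 2420.4, 2288 and 2314 in dark zone arrays, a difference of 0.09 (95% interval -0.03 to 0.21, limma adjusted p = 0.20). The zones did not overlap. Within each array, the log2 ratio of the second Hspe1 probe set to Hspd1 was -0.75, -0.65, -0.87 and -0.72 in light zone arrays and -1.58, -1.44, -1.48 and -1.60 in dark zone arrays. The ratio was thus higher in every light zone array. Since the pair was picked after its values were seen, this is a description with no test, and the ratio shows unequal change without saying which gene moved.

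Hspa9, the mitochondrial HSP70 that pulls proteins into the matrix, read 868, 851, 874 and 844 in light zone arrays and 656, 703, 663 and 691 in dark zone arrays, which gave a difference of 0.34 with an SE of 0.05 and a limma adjusted p of 3.3e-04. The zones were well apart with little spread within either. Both dimmer probe sets above the filter were positive (0.20 and 0.28) without passing, and the average over all its probe sets, dim ones included, was 0.09 (limma adjusted p = 0.22). Dnajc30 read 277, 334, 309.9 and 304 in light zone arrays and 252, 268, 259 and 239.8 in dark zone arrays, which gave a difference of 0.26 with an SE of 0.07 and a limma adjusted p of 0.0088. The remaining members of the group, Dnajc15 (0.12), Dnajc11 (0.04) and Dnaja3 (-0.11), did not pass. The dimmer probe set of Dnaja3 above the filter passed as lower (-0.50). The cofactor Grpel2, a nucleotide exchange factor of Hspa9, was lower in the light zone (-0.23, SE 0.06, limma adjusted p = 0.0067), and its relative Grpel1 did not pass (-0.12, limma adjusted p = 0.11).

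**Figure D3:**
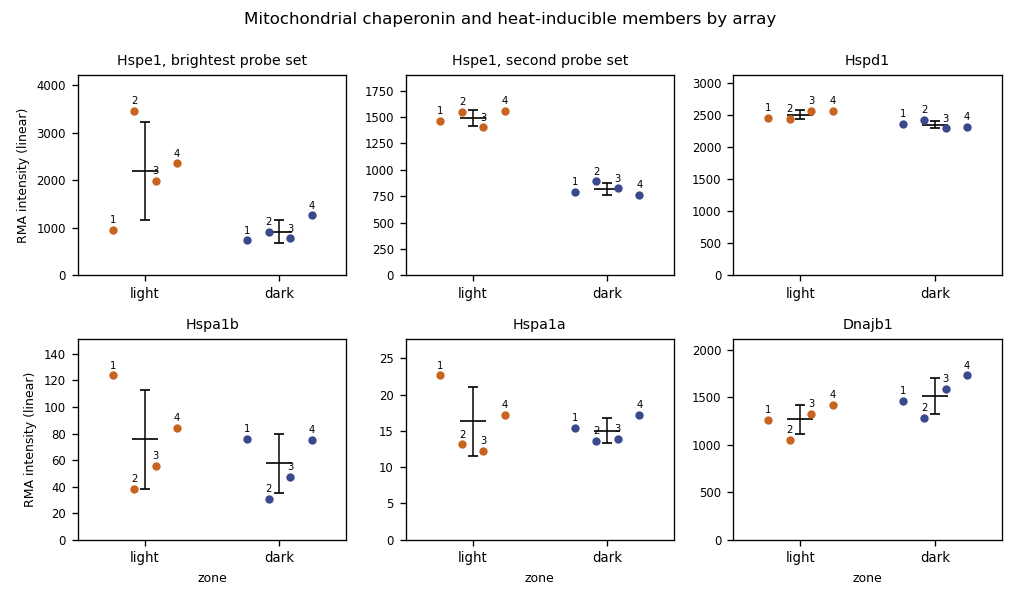
RMA intensity on a linear scale of the mitochondrial chaperonin genes and 3 heat-inducible members, with light zone arrays at the left and dark zone arrays at the right of each panel. Numbers are replicate numbers and bars the mean and SD of 4 arrays. The second Hspe1 probe set separates the zones with little spread, the brightest one does not, and Hspa1b and Dnajb1 have their lowest array at replicate 2 in both zones.

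Hspd1 and Hspe1 lie head to head on chromosome 1 and are transcribed away from each other. The 215 bases between the Hspe1 start and the nearer of the 2 listed Hspd1 starts are shown because both genes share them while their differences were unequal; the other listed Hspd1 start lies beyond that of Hspe1. Capitals mark heat shock elements, the sites bound by HSF1, searched on both strands as GAA, 2 free bases, TTC, 2 free bases and GAA. Here 2 matches overlap. Sequences are from RefSeq on GRCm38.p6, 5′ to 3′.
Hspd1 to Hspe1, chr1:55087933-55088147, plus strand: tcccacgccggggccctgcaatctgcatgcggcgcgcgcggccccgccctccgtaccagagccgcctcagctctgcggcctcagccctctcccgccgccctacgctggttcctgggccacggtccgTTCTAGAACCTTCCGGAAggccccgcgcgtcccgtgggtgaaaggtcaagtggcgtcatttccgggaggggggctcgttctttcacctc

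The same motif was found in 4 of the 63 members with a promoter window of 300 bases (250 before the start and 50 from it on), against 179 of 27025 genes (0.662%). Besides Hspd1 and Hspe1, which share the same sites, these were Hsph1 and Dnajb6, both lower in the light zone. The 4 genes that hold the motif therefore had differences of 1.14, 0.09, -0.31 and -0.38 for Hspe1, Hspd1, Dnajb6 and Hsph1, in both directions. In Hsph1 the match begins 15 or 36 bases past the start, depending on which of 2 starts is used. In Dnajb6 it begins 46 bases before the first listed start. They are shown, again with the motif in capitals, for comparison with the shared promoter.
Hsph1, chr5:149636282-149636306, minus strand: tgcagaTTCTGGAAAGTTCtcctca
Dnajb6, chr5:29735807-29735897, plus strand: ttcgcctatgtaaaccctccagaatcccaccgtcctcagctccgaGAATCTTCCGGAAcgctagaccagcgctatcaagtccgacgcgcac

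A match is a run of letters and no evidence of binding, and elements that depart from the exact letters were not counted. The heat-inducible Hspa1a, Hspa1b and Dnajb1 had windows but no match to the heat shock pattern. The E-box CACGTG, the letters that MYC and related factors recognise, was in 6 of the 63 members and in 8.09% of all genes. The members were Dnajc1, Dnajc16, Dnajc8, Hspbap1, Hspd1 and Hsph1. The CCAAT box was in 23 of the 63 members and in 41.1% of all genes. The longer element made of CCAAT, 9 free bases and CCACG, known from genes of the unfolded protein response, was in 0 of 63 members and in 3 of the 5 left-out genes of the endoplasmic reticulum (Hspa5, Hsp90b1 and Dnajc3), against 0.137% of all genes.

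Members of the endoplasmic reticulum included the J protein with the largest difference above 0. Of the 6 grouped here, all tested, 3 were higher in the light zone, 1 was lower and 2 did not pass. Among all tested genes, 24.8% were higher and 19.1% were lower. Dnajc1, a membrane J protein that partners the luminal HSP70, read 409.6, 428, 428 and 402 in light zone arrays and 242, 262, 269 and 264 in dark zone arrays, which gave a difference of 0.69 with an SE of 0.06 and a limma adjusted p of 2.2e-06. All light zone arrays stood well above all dark zone arrays. All 5 of its probe sets above the filter were positive (0.15 to 0.69), and 4 passed. Hspa13, a microsomal HSP70, read 277, 323, 319 and 298 in light zone arrays and 209, 228, 225 and 202 in dark zone arrays, which gave a difference of 0.49 with an SE of 0.07 and a limma adjusted p of 1.3e-04. A dimmer probe set gave -0.08, and the average of its probe sets, 0.09, did not pass (limma adjusted p = 0.25).

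Dnajb14, a J protein of the same membrane, was dim, at 36.3, 33.5, 36.9 and 35.0 in light zone arrays and 23.6, 21.9, 25.7 and 23.97 in dark zone arrays, which gave a difference of 0.57 with an SE of 0.07 and a limma adjusted p of 2.1e-05. All of its dark zone arrays were below the level of the filter, so it was tested, and counted as higher, only through its light zone arrays. Dnajc10, a J protein with disulfide reductase activity, did not pass at -0.003 (95% interval -0.16 to 0.16), and Dnajb12 did not pass (-0.04). The dimmer probe set of Dnajb12 above the filter passed as lower (-0.35). Dnajc25 was lower in the light zone at -0.26 (limma adjusted p = 0.048), near the filter. Its call held only without array 1 of the light zone or array 1 or 3 of the dark zone, with a limma adjusted p of 0.077 to 0.13 otherwise (-0.32 to -0.17 over the 8 omissions), and it was also lost without a filter, with centred arrays, with quantile normalization and with a pseudocount (limma adjusted p = 0.061 to 0.065). For the 5 left-out genes of this compartment, the differences were 0.83 for Hsp90b1, 0.53 for Hspa5, 0.49 for Dnajb11, 0.46 for Dnajb9 and 0.24 for Dnajc3, all higher in the light zone past the threshold. Of the plasma cell markers, Irf4 (2.03) and Prdm1 (1.37, with all dark zone arrays below the filter) were higher in the light zone. Jchain was lower (-0.15), and Sdc1 (0.14) and Xbp1 (0.15) did not pass. The part of these markers in the values of this compartment was not tested.

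Small heat shock proteins, which hold clients without ATP, were barely detected. Of 7 on the array, Hspb1 alone reached the filter, at 34.3, 39.6, 39.2 and 44.3 in light zone arrays and 46.5, 39.8, 33.02 and 41.2 in dark zone arrays, a difference of -0.02 (95% interval -0.25 to 0.20, limma adjusted p = 0.88). The zones overlapped. The 20 members below the filter, 6 of them small heat shock proteins, had 8-array means between 10.1 and 25.4 and differences between -0.23 and 0.21. In a fit of all named genes, 0 of these 20 passed at a limma adjusted p under 0.05, and 4 had an unadjusted p under 0.05.

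The remaining Hsp symbols are not classical chaperones. Hspb11, also known as the intraflagellar transport protein IFT25, read 171, 208, 181 and 232 in light zone arrays and 107, 118, 124 and 115 in dark zone arrays, which gave a difference of 0.76 with an SE of 0.09 and a limma adjusted p of 3.9e-05. The zones were well apart. Hspbp1, a nucleotide exchange factor of HSP70, was higher by 0.18 (SE 0.06, limma adjusted p = 0.019), a call lost without dark zone replicate 2 (limma adjusted p = 0.053) and under quantile normalization (0.14, limma adjusted p = 0.058). Hspg2 was lower at -0.25 (SE 0.08, limma adjusted p = 0.026), a call lost without array 1 or 3 of the light zone or array 1 or 2 of the dark zone (limma adjusted p = 0.0502 to 0.076, differences from -0.31 to -0.20). With probe sets averaged the Hspg2 difference was -0.11 (limma adjusted p = 0.13), its other probe set above the filter being at 0.03. Hspbap1 did not pass (-0.22, limma adjusted p = 0.058), but passed without array 4 of the light zone (limma adjusted p = 0.014) and without array 3 of the dark zone (limma adjusted p = 0.047).

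Probe sets of one gene did not always give one value. The members have 190 probe sets, of which 113 do not stand for a gene, and 68 of these are above the filter. For the 20 called members with such a probe set, 30 of 37 had the sign of the gene's value, 19 of them past the threshold, and 7 had the opposite sign, 1 of them past it (Dnaja2). For members that were not called, 6 of 31 passed on a dimmer probe set. Among probe sets above the filter, differences were spread most widely in Hspa4 and Cct3, from -1.31 to -0.31 and from -0.86 to 0.12.

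**Figure D4:**
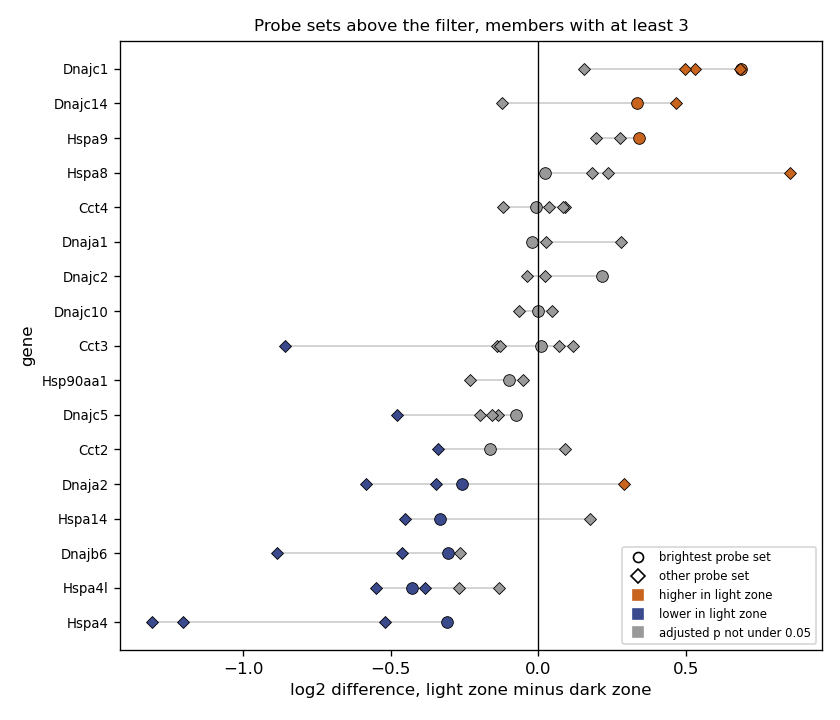
Log2 difference, light zone minus dark zone, of every probe set above the filter for the 17 members with at least 3 such probe sets. Circles are the brightest probe set of a gene and diamonds the others, coloured by whether they passed an adjusted p of 0.05 in a fit over all probe sets. All 4 Hspa4 probe sets lie left of 0 and all 4 Hspa8 probe sets right of 0, from 0.02 to 0.85.

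Of the cochaperones and regulators outside the members, 11 of 33 were called, beside 43.9% of all tested genes. Of 36 such genes on the array, taken from 3 lists, 33 were tested: 5 were higher in the light zone, 6 were lower and 22 did not pass, with a median difference of 0.02 against 0.01 over all tested genes. Among cochaperones of HSP70 and HSP90, 2 of 22 were higher and 3 were lower. Bag2, an inhibitor of the ubiquitin ligase CHIP, read 99.05, 119.7, 104 and 103 in light zone arrays and 69.0, 89.2, 84.3 and 68.5 in dark zone arrays, which gave a difference of 0.46 with an SE of 0.10 and a limma adjusted p of 0.0023. Those arrays did not overlap. The immunophilin Fkbp4, a partner of HSP90, was higher by 0.27 (SE 0.06, limma adjusted p = 0.0034), but with plain probe sets alone its difference was 0.15 and did not pass (limma adjusted p = 0.26).

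The heat-inducible HSP90 partner Chordc1 was lower at -0.20 (SE 0.06, limma adjusted p = 0.017), with 1109, 1081, 1125 and 1195 in light zone arrays and 1339, 1269, 1235 and 1337 in dark zone arrays and no overlap. Ahsa1, which stimulates the HSP90 ATPase, was lower at -0.19 (limma adjusted p = 0.048), but its call held only without dark zone replicate 1 (limma adjusted p = 0.056 to 0.13 otherwise, differences over the 8 omissions from -0.24 to -0.15). With probe sets averaged the Ahsa1 difference was -0.05 (limma adjusted p = 0.68), and the call was also lost without a filter, with plain probe sets alone, with centred arrays and with quantile normalization (limma adjusted p = 0.054 to 0.084). Stip1, which bridges HSP70 and HSP90, did not pass (-0.05, 95% interval -0.17 to 0.08, limma adjusted p = 0.56), nor did the kinase cochaperone Cdc37 (-0.18, limma adjusted p = 0.072), which passed without light zone replicate 3 (-0.22, limma adjusted p = 0.044). Bag3, an HSF1 target, and the factors Hsf2 and Hsf4 were too dim to test. Hsbp1, a negative regulator of HSF1, did not pass (0.18, limma adjusted p = 0.092) but did so without light zone replicate 3, at 0.25 (limma adjusted p = 0.031). Hsf1 and Ptges3 were not analysed here.

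**Figure D5:**
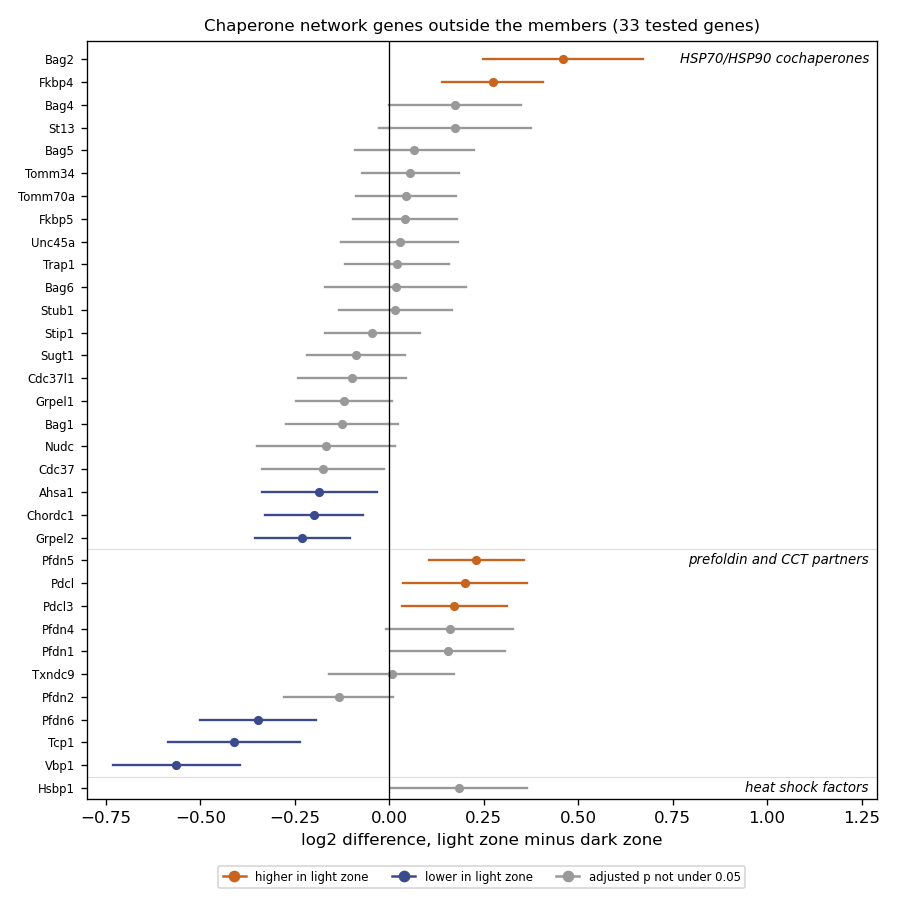
Log2 difference, light zone minus dark zone, of the 33 tested cochaperones, prefoldin and chaperonin partners and heat shock regulators outside the members. Points are limma estimates and bars 95% confidence intervals, coloured as higher in the light zone, lower in the light zone or not past an adjusted p of 0.05. Vbp1, Tcp1 and Pfdn6 are the 3 lowest and Bag2 is the highest.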

How the data were processed

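RNA of 4 light zone and 4 dark zone samples was hybridised to 3′ expression arrays with 45037 probe sets. The deposited values are intensities on a linear scale made by RMA per the submitters' processing notes, its version not given in the sources used here. The design had assumed log2 values, so log2 was taken first. Symbols came from the platform annotation, and the probe set with the highest mean log2 over 8 arrays stood for a gene. Genes with a mean at or above the 50th percentile (27.8) were fitted together in limma 3.58.1 (R 4.3.3; lmFit and eBayes, two-sided), with Benjamini-Hochberg adjustment over 10547 genes and a threshold of 0.05. Dim genes were not tested, so a member had to be bright on average. The number of arrays limits the precision: the median SE was 0.07 on the log2 scale. Members and lists were chosen with earlier results of these data known. Groups follow the sample titles. The genes named were a fixed set of central chaperones, every Cct gene and main partners, up to 6 genes past the threshold with the largest difference in each role group or list, with up to 2 against its majority, and any member with a probe set past the threshold in the opposite direction. Others complete counts and were chosen after their values were seen. Alternatives were other filters, probe set choices, scalings, variance models and omissions of arrays. The fit was tested on simulated data. Figures used matplotlib 3.10.9. No per-sample column was left unused.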

Additional observations from a re-analysis of the deposited data

Results flagged for a closer look

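In 6 of the 116 groups of 4 arrays examined, 1 array stood apart from the other three by Dixon's test at the 95% level, where chance alone gives about 1 in 20. For Cct7, light zone replicate 2 read 2377 against 2558 to 2573 in the other light zone arrays. For Dnaja1, light zone replicate 4 read 2332 against 1876 to 1928. For Hspbp1, light zone replicate 2 read 133.2 against 137.9 to 138.5. For Hsp90aa1, dark zone replicate 3 read 5267 against 5536 to 5581 in the other dark zone arrays. Among partners outside the members, Pfdn5 read 3125 in light zone replicate 2 against 3355 to 3383. Bag3, below the filter, read 22.4 in dark zone replicate 4 against 25.4 to 25.9.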

How the results depend on the processing

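Of the 29 called members, 16 kept their call under each of the 19 alternatives that tested them. The count of members higher in the light zone was 9 at an adjusted p under 0.01, and otherwise stayed within 1.5 times of 14. With probe sets averaged, 31 of 53 tested members were called, 10 higher and 21 lower. The shares of all genes under that setting are not given here. Whether the shift to lower was particular to the members was not tested. The count of partners higher in the light zone, 5 as reported, was 3 without a filter, 2 with plain probe sets alone, 3 with array weights, 3 at an adjusted p under 0.01, and 3 to 5 when each array was left out. With averaged probe sets the sign turned for Cct3 (-0.13, limma adjusted p = 0.045), Cct8 (-0.034), Dnaja1 (0.095) and Pdcl (-0.013). With arrays centred on the median it turned for Cct4 (0.015), Dnaja1 (0.0029) and Hspb1 (0.00021), with array weights for Hspb1 (0.0037), and with quantile normalization for Hspa8 (-0.042). Over the omissions of 1 array, Cct3 ran from -0.024 to 0.036, Cct4 from -0.034 to 0.022, Dnaja1 from -0.094 to 0.012, Hspa8 from -0.0075 to 0.069 and Hspb1 from -0.11 to 0.051. The cause of these shifts was not tested.

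Same-numbered samples deviated together with correlations of 0.126, 0.189, 0.060 and 0.243, and 7 of the 8 samples correlated best with the sample of their own number in the other zone, the exception being dark zone replicate 3. This is a hint from the data that the numbers may pair the samples, which the labels do not state; since 1 of the 4 correlations was under 0.1, the numbers were not used as pairs. With the replicate number as a block, 14 members were higher and 16 lower in the light zone. Under this replicate block the limma adjusted p was 0.013 for Hspa1b (0.44 without it) and 0.0052 for Dnajb1 (0.067 without it), and Hspbap1 also gained a call. Cct7 (limma adjusted p = 0.054) and Dnajc27 (limma adjusted p = 0.056) lost theirs. Of the partners named here, Ahsa1, Pdcl and Pdcl3 lost a call and Cdc37 gained one. Other settings also ended calls of Dnajc2, Dnajc24, Dnajc27, Pdcl and Pdcl3 that lay close to the threshold, and averaged probe sets also called Dnaja3, Dnajb12, Dnajc21 and Dnajc5.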
